A study of Populus tremula x Populus alba with 12 samples.

Results

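Potri.019G043600.1 and Potri.013G074500.1 are the transcripts of a pair of BAHD-type benzoyltransferases that published work on poplar links to the synthesis of salicinoids. Both were found by their IDs in the count tables, which makes 2 members among 16866 transcript rows, each with 1 row, and both passed the filter on low counts. Leaves were taken at the middle of the stem after 3 months of greenhouse growth, all from the hybrid poplar *Populus tremula* × *P. alba* clone INRA 717. The 12 libraries carried 4 genotype labels with 3 libraries each. Knockout denotes plants with a glycosyltransferase disrupted by CRISPR, intermediate is defined in the labels by an intermediate phenotype alone, and empty-vector and wild-type are the controls. The labels name neither the edited gene nor the construct carried by each group, and do not say whether the libraries of a group came from 1 line, so the p-values reflect only how far these libraries differ, which may be technical.

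BAHD enzymes transfer an acyl group from a coenzyme A thioester to an alcohol or amine. In poplar, benzoyltransferases of this family make benzyl benzoate and salicyl benzoate, esters that published work places upstream of salicinoids, the phenolic glycosides that defend willow and poplar leaves against herbivores. The glycosyltransferase UGT71L1 (Potri.016G014500.1) adds glucose to salicyl benzoate in the same route. Which of the pair makes which ester is not assigned here, and the names are published assignments that were not checked against an annotation.

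The depth of a library lay between 5.38 and 17.3 M counts (median 6.18 M counts). Levels are in CPM, counts relative to a library size scaled by TMM, which assumes that most transcripts do not differ between libraries. UGT71L1, the third published gene of the route, read 9.58, 11.2 and 10.1 CPM in knockout, 21.5, 35.7 and 28.2 CPM in intermediate, and 33.5 to 77.2 CPM in the 6 controls. The labelled tissue was not checked against photosynthesis genes because the files pair no IDs with names. Of 5 xylem cellulose synthases, listed as markers of vein tissue, 3 were in the files, and their summed level was 357 to 1527 CPM in knockout, 676 to 930 CPM in intermediate and 497 to 1291 CPM in the controls. In a bulk sample, more cells of a type and more RNA per cell cannot be told apart.

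Potri.019G043600.1 was several times higher in knockout leaves than in any other group. It read 445, 555 and 624 CPM in the knockout libraries (2599, 2974 and 5685 counts) and 88.2, 140 and 134 CPM in intermediate (480, 839 and 1261 counts). The empty-vector libraries read 49.6, 112 and 56.0 CPM, and the wild-type libraries read 71.1, 58.1 and 50.3 CPM. All 3 knockout libraries lay above the other 9, and the lowest of them was more than 3 times the highest intermediate one. The intermediate libraries overlapped the controls through a single one, empty-vector library 2, which exceeded intermediate library 1; 1.85% of tested rows had all intermediate libraries above the controls. The summed xylem cellulose synthases read 1402, 1527 and 357 CPM in knockout libraries 1, 2 and 3, which are the 2 highest sums and the lowest of all 12 libraries, and their part in the level of this gene was not tested. Library 3, with the lowest sum, had the highest level of Potri.019G043600.1.

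**Figure D1:**
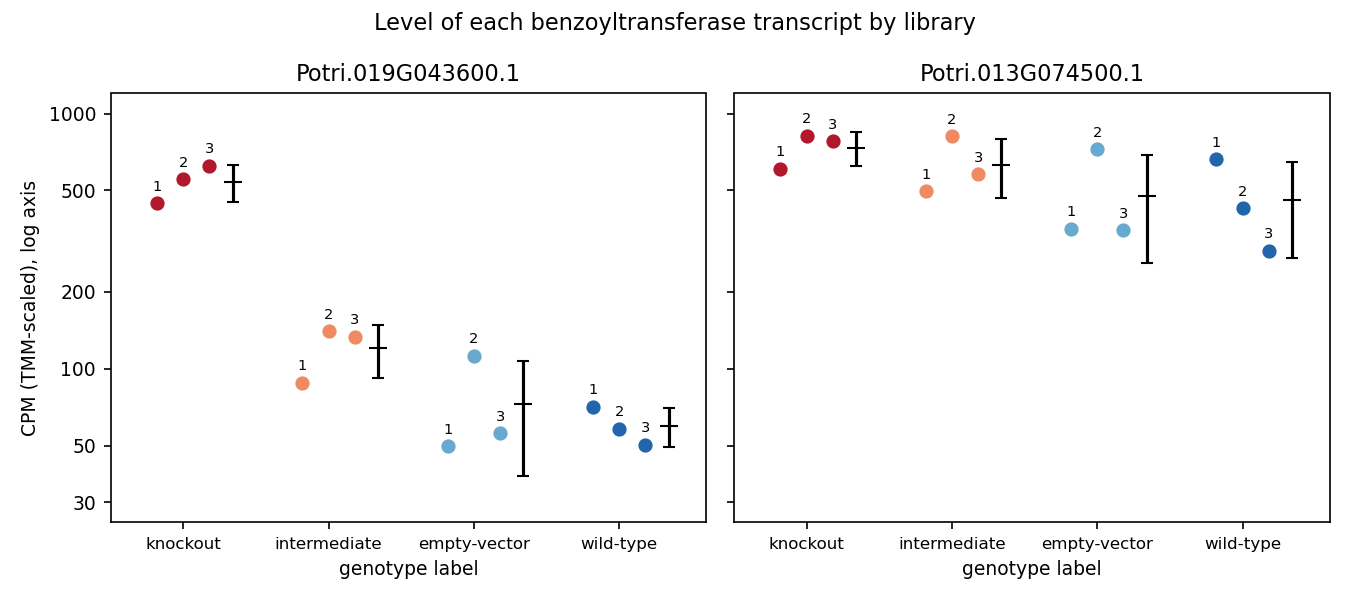
Level of Potri.019G043600.1 (left) and Potri.013G074500.1 (right) in CPM on a log axis, 1 point per library with its replicate number, and group mean ± SD (n = 3) as a bar beside the points. For Potri.019G043600.1 the knockout libraries sit between 445 and 624 CPM, above the other 9, while for Potri.013G074500.1 the groups overlap.

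The rise of Potri.019G043600.1 in knockout over the controls was 8.20-fold with a 95% interval of 5.66 to 11.9, a log2 fold change of 3.04 ± 0.25 (SE). By the quasi-likelihood test of edgeR, adjusted by Benjamini-Hochberg over all 14279 tested rows, it passed (adjusted p = 4.2e-06). In this comparison 30.1% of all tested rows were called, 17.1% as higher in knockout, so a call alone sets no transcript apart. By size, 1.60% of the tested rows had a larger rise. The knockout libraries were all above the 6 controls in 15.1% of tested rows. Against wild-type alone the log2 fold change was 3.18, and against empty-vector alone it was 2.89.

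Potri.019G043600.1 was also 4.48-fold higher in knockout than in intermediate, and the 95% interval was 2.83 to 7.09 (adjusted p = 6.3e-04 by edgeR). Between these groups 17.4% of tested rows were called, 9.94% as higher in knockout. Intermediate averaged 121 ± 28.3 CPM (SD, n = 3) and the controls 66.2 ± 23.9 CPM (SD, n = 6). On the log2 scale the fitted difference was 0.87 ± 0.25 (SE). The 95% interval of this fold was 1.26 to 2.66, but the difference did not pass over all rows (edgeR adjusted p = 0.41), in a comparison where 0.007% of tested rows were called. Only 2.04% of tested rows had a larger rise in intermediate over the controls. The knockout and the intermediate comparison use the same 6 controls. Empty-vector and wild-type averaged 72.7 ± 34.6 and 59.8 ± 10.5 CPM (SD, n = 3 each), and their difference had a log2 interval of −0.36 to 0.93 (edgeR adjusted p = 0.65) in a comparison where 0.042% of rows were called.

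Potri.013G074500.1 differed far less between the genotypes. It read 609, 819 and 781 CPM in knockout (3560, 4391 and 7119 counts) and 496, 814 and 580 CPM in intermediate (2702, 4878 and 5469 counts). The empty-vector libraries read 354, 725 and 349 CPM, and the wild-type libraries 662, 426 and 290 CPM. The knockout and control libraries overlapped, since empty-vector library 2 and wild-type library 1 both exceeded knockout library 1. The highest intermediate library stood next to the highest knockout library.

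The fitted level of Potri.013G074500.1 in knockout was 1.57-fold that of the controls, with a 95% interval of 1.02 to 2.43. It did not pass after adjustment over all rows (edgeR adjusted p = 0.11). Without empty-vector library 2 it passed at a log2 fold change of 0.83 (edgeR adjusted p = 0.026), and without wild-type library 1 also at 0.83 (edgeR adjusted p = 0.043). With empty-vector libraries 1 and 3 both left out, a setting added after the data were seen that leaves library 2, the highest control, as the only empty-vector library, the log2 fold change was 0.32 (edgeR adjusted p = 0.45). Knockout over intermediate gave a fold of 1.17 and a 95% interval of 0.700 to 1.95 (adjusted p = 0.70 by edgeR), and intermediate over controls gave 1.35 and an interval of 0.870 to 2.09 (adjusted p = 0.91 by edgeR). Empty-vector over wild-type gave 1.04 and an interval of 0.621 to 1.73 (adjusted p = 0.96 by edgeR). None of these 3 comparisons passed, and each of the 3 intervals includes the 1.57-fold of knockout over controls.

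**Figure D2:**
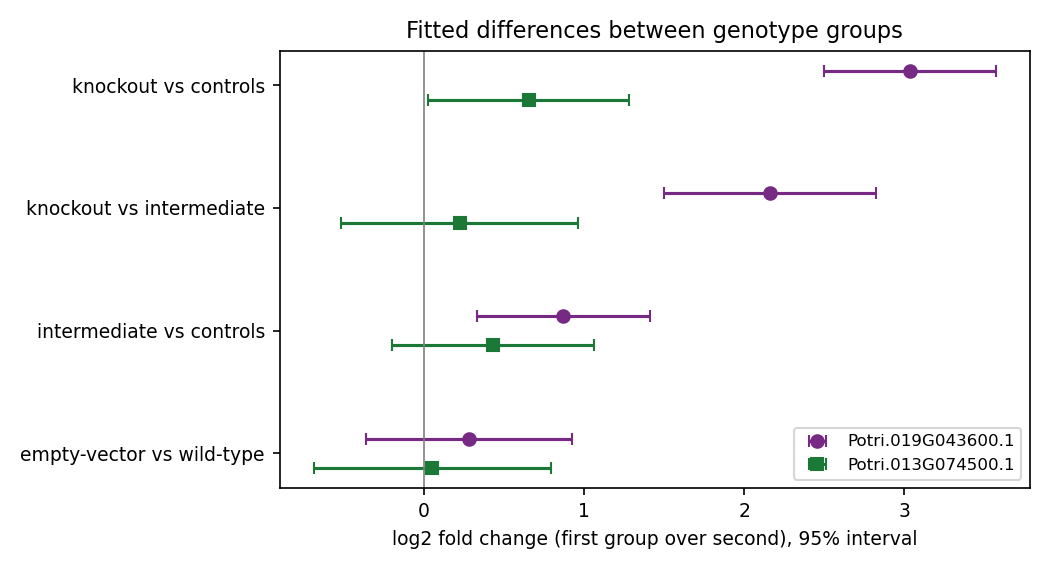
Log2 fold change of Potri.019G043600.1 (circles) and Potri.013G074500.1 (squares) in the 4 comparisons, first group over second, with the 95% interval of edgeR's fit. Potri.019G043600.1 lies at 3.04 and 2.16 in the knockout comparisons, and Potri.013G074500.1 lies between 0.05 and 0.65 in all 4.

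Neither transcript was limited by counting. The lowest count was 326 for Potri.019G043600.1 and 1893 for Potri.013G074500.1, which gives counting errors of 5.54% and 2.30%. The fitted biological coefficient of variation within groups was 26.5% for Potri.019G043600.1 and 30.2% for Potri.013G074500.1, above that of 72.8% and 81.8% of tested rows. For Potri.019G043600.1 the highest library of a group read 2.27 times the lowest in empty-vector and 1.41 times in wild-type. The same quotient was 1.59 in intermediate and 1.40 in knockout. For Potri.013G074500.1 it was 2.08 in empty-vector, 2.28 in wild-type, 1.64 in intermediate and 1.34 in knockout. The widest spread thus lay in empty-vector alone for Potri.019G043600.1 and in both control groups for Potri.013G074500.1.

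The ratio of the pair's counts within a library needs no scaling between libraries. It is a ratio of read counts and not of molecules, because transcript lengths were not used here. Counts of Potri.019G043600.1 per count of Potri.013G074500.1 were 0.730, 0.677 and 0.799 in knockout. They were 0.178, 0.172 and 0.231 in intermediate, 0.140, 0.155 and 0.160 in the empty-vector libraries, and 0.107, 0.136 and 0.173 in the wild-type libraries. The knockout libraries again stood above the other 9, with a gap of more than 2-fold to the next library. The intermediate libraries were at the upper end of the controls, and 2 of 3 exceeded all 6. As a share of the pair's summed counts, Potri.019G043600.1 held 40.4 to 44.4% in knockout, 14.7 to 18.7% in intermediate and 9.70 to 14.8% in the controls. The exact (Clopper-Pearson) 95% intervals of these shares, which cover counting error only, spanned 39.3 to 45.3% over the knockout libraries and 8.78 to 16.3% over the controls.

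**Figure D3:**
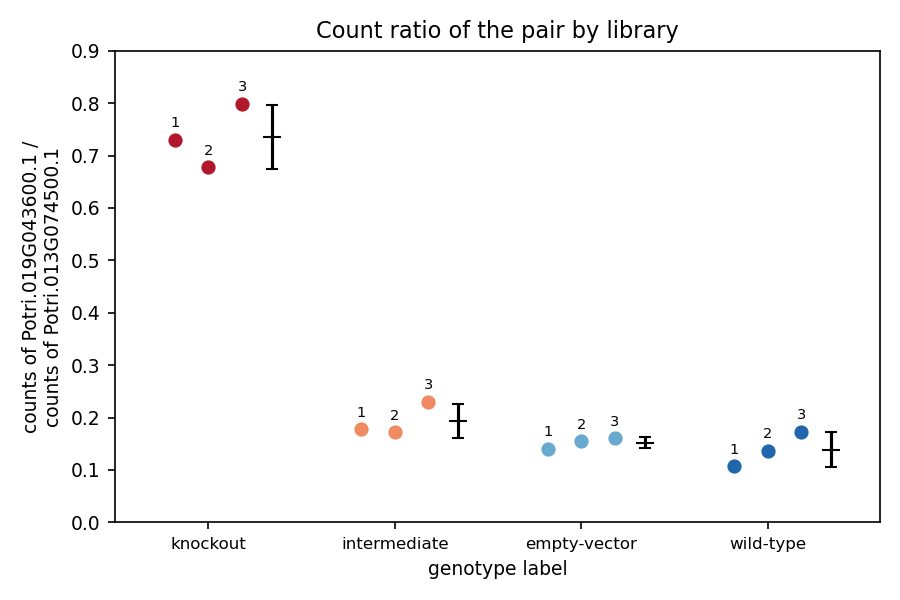
Counts of Potri.019G043600.1 divided by counts of Potri.013G074500.1, 1 point per library with its replicate number, and group mean ± SD (n = 3). The knockout libraries lie between 0.677 and 0.799 and the other 9 between 0.107 and 0.231.

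The mean ratio was 5.10-fold higher in knockout than in the controls, a difference of 2.35 on the log2 scale. An exact two-sided permutation test over libraries gave p = 0.0238, the smallest that 3 against 6 libraries allow, and an adjusted p of 0.0952 over the 4 comparisons, which does not pass. With libraries scaled to the counts of Potri.013G074500.1, a setting chosen after the data were seen, edgeR's fit of Potri.019G043600.1 gave a 5.06-fold difference. On the log2 scale this was 2.34 ± 0.36 (SE). Such scaling carries the spread of Potri.013G074500.1 between libraries into every row at once. The fit treats the rows as separate evidence on spread, so its p-values and intervals cannot be relied on and are not given. Against intermediate the ratio in knockout was 3.83-fold higher. There the exact permutation p was 0.10, the smallest possible with 3 against 3 (adjusted p = 0.133). The scaled edgeR fit gave a log2 difference of 1.93 for knockout over intermediate.

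In intermediate the mean ratio was 1.33-fold that of the controls (exact permutation p = 0.0476, adjusted p = 0.0952). The edgeR fit scaled to Potri.013G074500.1 gave a log2 difference of 0.41 ± 0.37 (SE). Empty-vector over wild-type had a ratio of 1.11-fold (exact permutation p = 0.60, adjusted p = 0.60). The summed level of the pair was 1054, 1373 and 1405 CPM in knockout, 584.5 to 954 CPM in intermediate and 340 to 837 CPM in the controls. Knockout did not overlap the other groups, as for Potri.019G043600.1 alone but not for Potri.013G074500.1 alone. Of single tested rows, 15.1% had all knockout libraries above the controls and 18.9% had them above intermediate. Within the sum, the mean difference between knockout and controls was larger for Potri.019G043600.1 (541 against 66.2 CPM) than for Potri.013G074500.1 (736 against 468 CPM).

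Among the 9 libraries outside knockout the pair moved together. The knockout libraries form a separate cluster, so the relation was tested without them. Across the 9 libraries log2 CPM of the transcripts had a Pearson r of 0.86 (exact permutation p = 0.0055) and a Spearman rho of 0.87 (exact permutation p = 0.0045), and this was the only relation tested. Without intermediate libraries 2 and 3, the farthest from the median of Potri.019G043600.1, r was 0.86 (n = 7, exact permutation p = 0.0133). These permutations ran freely over all libraries and ignored the genotype labels, so their p-values can also reflect differences between groups. With each group centred on its mean, r was 0.89 (n = 9). It is given without a p-value, because centring ties the values within a group and a free permutation over all libraries ignores this. Values of a library share its scaling, which can itself add to such a correlation. Empty-vector library 2 was the highest control for both transcripts and wild-type library 1 the next highest for both.

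**Figure D4:**
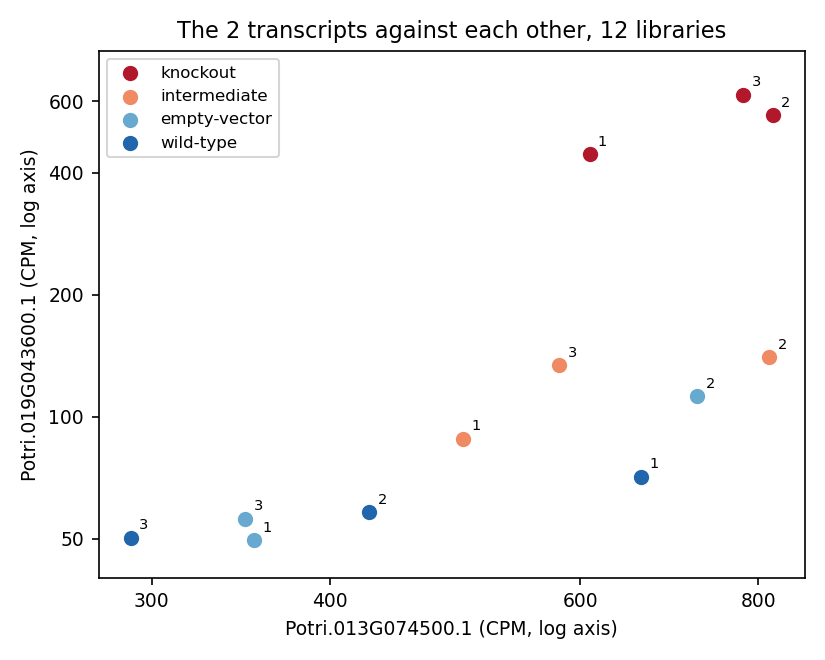
CPM of Potri.019G043600.1 against CPM of Potri.013G074500.1 on log axes, 1 point per library, coloured by genotype and numbered by replicate. The 9 libraries outside knockout rise together along one band (r = 0.86), and the 3 knockout libraries lie above it.

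UGT71L1 followed the same swings between control libraries, at 77.2 CPM in empty-vector library 2 and 53.8 CPM in wild-type library 1, with the other 4 controls between 33.5 and 38.9 CPM. Counts of each benzoyltransferase were therefore divided by counts of UGT71L1, a ratio chosen after the values were seen and given without a test. For Potri.019G043600.1 this ratio was 46.4, 49.6 and 61.8 in knockout and 4.10, 3.92 and 4.74 in intermediate. It was 1.36, 1.46 and 1.67 in the empty-vector libraries and 1.32, 1.495 and 1.45 in the wild-type libraries. The groups fell into 3 levels without overlap, with both control genotypes on the lowest. Such levels were shown by 9.41% of all tested rows when divided by UGT71L1. The denominator itself was 4.44-fold lower in knockout than in the controls.

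The coefficient of variation of this ratio over the 6 controls was 8.35%, where the CPM of Potri.019G043600.1 itself varied by 36.1% and counting error alone gives 7.33%. Among 10002 rows with a mean of at least 5 CPM, 0 had a lower one. The median was 35.2%, against 20.1% for the CPM of the same rows. UGT71L1 was made the denominator after its swings in these same 6 controls were seen, so ranks by this ratio are not independent support. The rank leaned on empty-vector library 2: without it the coefficient was 9.33% and 1.74% of rows were lower. Without any other single control library, between 0 and 5 rows were lower.

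For Potri.013G074500.1 the ratio to UGT71L1 was 63.6, 73.2 and 77.4 in knockout and 23.1, 22.8 and 20.6 in intermediate. The empty-vector libraries had 9.71, 9.39 and 10.4, and the wild-type libraries 12.3, 11.0 and 8.38. These groups also formed 3 levels without overlap, although the CPM of Potri.013G074500.1 overlapped between all groups. The coefficient of variation over controls was 13.4%, with 13 rows lower; without empty-vector library 2 it was 14.1%, with 10.1% of rows lower. The denominator itself fell in knockout (edgeR adjusted p = 2.3e-04), and it was lower in intermediate without passing (edgeR adjusted p = 0.69). Over all tested rows 9.41% showed the same 3 levels, 78.9% had knockout above intermediate and 10.8% had intermediate above the controls.

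**Figure D5:**
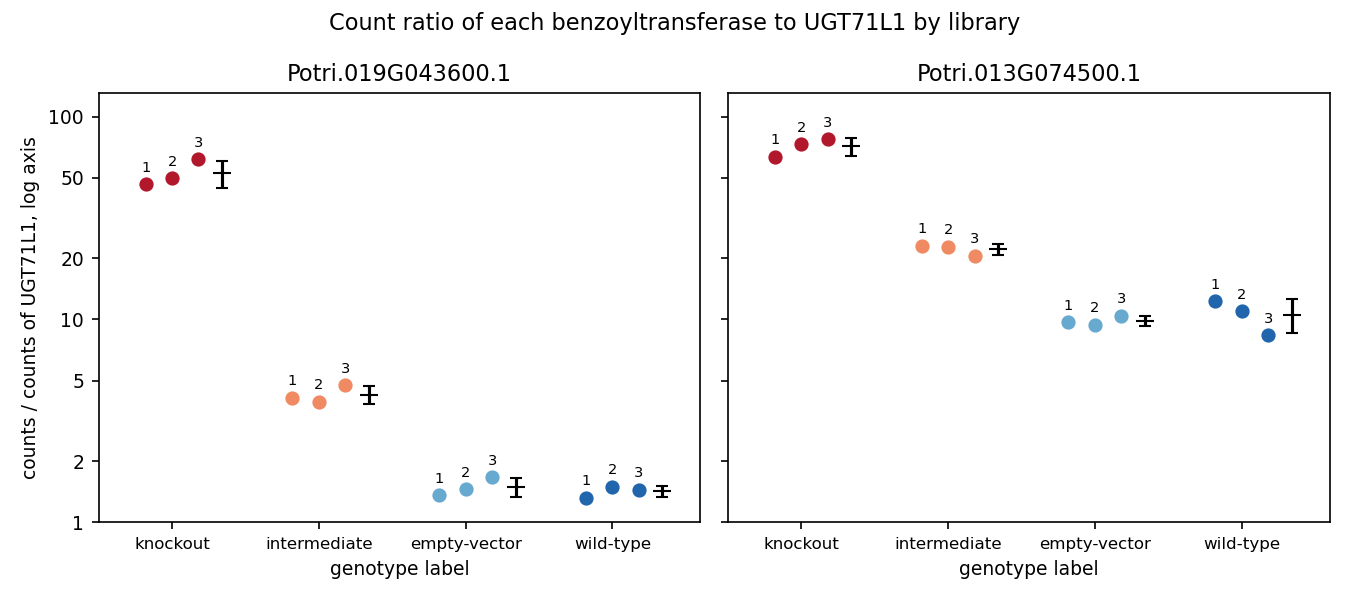
Counts of Potri.019G043600.1 (left) and Potri.013G074500.1 (right) divided by counts of UGT71L1 on a log axis, 1 point per library with its replicate number, and group mean ± SD (n = 3). Knockout, intermediate and the controls form 3 levels in each panel, at 46.4 to 61.8, 3.92 to 4.74 and 1.32 to 1.67 on the left.

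The transcript whose log2 CPM was most like that of Potri.019G043600.1 was Potri.012G032700.1, with a Pearson r of 0.98 over the 12 libraries and 0.93 over the 9 outside knockout, the highest of 10002 rows in both. A coefficient over all 12 libraries spans the separate knockout cluster, and it serves here only to rank rows by likeness, without a test. For Potri.019G043600.1, 179 rows had an r above 0.9 over the 12 libraries, and 2 rows over the 9. Potri.012G032700.1 read 316, 617 and 619 CPM in knockout, 55.8 to 81.0 CPM in intermediate and 25.9 to 49.6 CPM in the controls. These 3 ranges did not overlap, in a row picked for its likeness to a transcript with a similar order of groups. Over all tested rows 18.9% had knockout all above intermediate and 1.85% had intermediate all above the controls. Next were Potri.003G027600.1 over 12 libraries (r = 0.97) and Potri.017G071000.1 over 9 (r = 0.92). Potri.017G071000.1 averaged 47.4 ± 8.58 CPM over the knockout libraries (SD, n = 3) and 60.5 ± 15.1 CPM over the controls (SD, n = 6), so its likeness outside knockout did not extend to the knockout libraries. The files pair none of these IDs with names.

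For Potri.013G074500.1 the nearest rows over 12 libraries were Potri.009G104600.1 (r = 0.94) and Potri.004G082000.1 (r = 0.93), and over 9 libraries Potri.006G141400.1 and Potri.016G031500.1 (r = 0.94 each). The pair's own likeness depended on the knockout libraries. Over 9 libraries Potri.013G074500.1 stood 7th among the rows most like Potri.019G043600.1, and over 12 libraries, with r = 0.74, it stood at place 1045. In the other direction the shift was smaller. Among the rows most like Potri.013G074500.1, Potri.019G043600.1 stood at place 16 over 9 libraries and at place 42 over 12.

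The rows within 10 loci of either member, by the locus number in the ID, were read as well. Of the 7 such neighbours of Potri.019G043600.1 in the files 4 were tested, and 1 rose in knockout over controls. That row, Potri.019G042900.1, averaged 45.8 ± 18.8 CPM over the knockout libraries (SD, n = 3) and 25.5 ± 3.96 CPM over the controls (SD, n = 6; edgeR adjusted p = 0.014). Of the 8 neighbours of Potri.013G074500.1, all tested, 1 rose and 2 fell (1 and 3 by DESeq2, 1 and 1 by limma-voom). Over all tested rows 17.1% were called higher and 13% lower, so these counts from few rows set neither neighbourhood apart. Potri.013G073500.1 was 2.15-fold higher (edgeR adjusted p = 3.2e-04), and Potri.013G073600.1 was 11.4-fold lower, with 2.52 ± 0.184 CPM over the knockout libraries (SD, n = 3) and 29.4 ± 15.2 CPM over the controls (SD, n = 6; edgeR adjusted p = 7.5e-04). Median log2 fold changes were −0.07 and −0.96 for the neighbours of Potri.019G043600.1 and of Potri.013G074500.1, against −0.02 over all tested rows.

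Phenylalanine ammonia-lyase (PAL) makes cinnamate, from which plants derive benzoyl-CoA, the donor of benzoyltransferases, and cinnamate 4-hydroxylase (C4H) draws on the same cinnamate. Of 7 listed PAL and C4H genes 6 were measured. In knockout against controls edgeR called 0 of them, where it called 30.1% of all tested rows. The unadjusted p was under 0.05 for 0 genes, and DESeq2 and limma-voom each called 0. Their log2 fold changes ran from −0.15 to 0.48 with a median of −0.10. Between intermediate and controls the calls were likewise 0 by all 3 tools, with 0 at an unadjusted p under 0.05. Between empty-vector and wild-type, edgeR and limma-voom called 0 of them. There 1 gene had an unadjusted edgeR p under 0.05, and DESeq2 called 1 as higher in empty-vector. The 3 xylem cellulose synthases gave 0 calls by the same tools in knockout against controls, with 0 at an unadjusted p under 0.05 and a median log2 fold change of 0.19.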

How the data were processed

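Per the submitters' processing notes, the tools were HISAT2, SAMtools, Cufflinks, HTSeq and DESeq2, with no role or version. Genome build and counting strand: not given in the sources used here. Deposited files hold raw counts per transcript row, whole numbers whose sums differed between libraries. Related benzoyltransferases can share reads under the authors' counting, so the split between near copies is uncertain.

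Groups came from the genotype label. Using edgeR 4.0.16 under R 4.3.3, low rows were removed (filterByExpr, minimum count 10), which left 14279; these were scaled by TMM, and fitted as 4 group means with quasi-likelihood tests and Benjamini-Hochberg adjustment, threshold 0.05. Controls were the average of the empty-vector and wild-type means. Ratios of the pair were compared by exact permutation in SciPy 1.17.1. Likeness between rows was the Pearson r of log2 CPM (prior count 2). DESeq2 1.42.0 and limma 3.58.1 served as alternatives. The edgeR step was tested on simulated data, in which each row's variation was set to edgeR's fitted trend. Both members varied more than that trend (26.5% against 22.8% for Potri.019G043600.1, 30.2% against 24.3% for Potri.013G074500.1). The simulation therefore does not cover their own spread. The members, lists and rule for named genes (UGT71L1, up to 3 called per list, the 2 rows most like each member) were chosen with earlier results of these data known. Of the called neighbours 1 is not named. Description-based lists were not used, as no annotation was given.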

Additional observations from a re-analysis of the deposited data

Results flagged for a closer look

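Among the 6 control libraries Potri.019G043600.1 had 1 library far from the others. Empty-vector library 2 read 112 CPM and the next highest control 71.1 CPM, a gap of 0.659 of the whole range, above Dixon's 95% critical value for 6 values. Chance flags about 1 in 20 groups. The same library was the deepest, at 17.3 M counts, and the highest control for Potri.013G074500.1 (725 CPM) and UGT71L1 (77.2 CPM). The pair's count ratio in it was 0.155, within the range of the other controls. The part of depth in these levels was not tested.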

How the results depend on the processing

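Potri.019G043600.1 passed in knockout against controls under all 19 alternatives (log2 fold change 2.69 to 3.23) and against intermediate under all 13 (1.98 to 2.29), by edgeR, DESeq2 and limma-voom. In intermediate against controls neither member passed in 18 alternatives (0.73 to 1.08 for Potri.019G043600.1 and 0.20 to 0.62 for Potri.013G074500.1). For Potri.013G074500.1 in knockout, values with 1 library left out ran from 0.53 to 0.83 against controls, where leaving out empty-vector library 2 (0.83) or wild-type library 1 (0.83) made it pass, and from 0.08 to 0.45 against intermediate. Between empty-vector and wild-type the signs turned without empty-vector library 2, to −0.25 for Potri.019G043600.1 (range 0.50 down to −0.25 over single libraries) and −0.46 for Potri.013G074500.1 (−0.46 to 0.41), and for Potri.013G074500.1 without wild-type library 3 (−0.19); the cause was not tested. The pair's log2 ratio kept its difference in knockout at 2.27 to 2.41 against controls and 1.86 to 2.07 against intermediate with 1 library left out. Scaled to Potri.013G074500.1, edgeR gave 2.34 and 1.93, effect sizes only, since the p-values of that fit cannot be relied on. Empty-vector against wild-type ran from −0.020, without wild-type library 1, to 0.33. The correlation of the pair stayed between 0.81 and 0.93. Calls over all rows moved by over 1.5 times in knockout against intermediate, where 2478 became 1607 without knockout library 2 and 1566 without intermediate library 2. They moved in intermediate against controls (1, and 0 to 63 over alternatives, the highest by DESeq2) and in empty-vector against wild-type (6, and 0 to 1302, the highest without empty-vector library 2; 252 by DESeq2). No paired analysis was possible because the labels give no replicate numbers shared between groups. Tests of 3 against 3 libraries cannot fall below an exact p of 0.10.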
